A study of Clytia hemisphaerica and Astroides calycularis and Pocillopora acuta with 16 samples.

Results

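The aboral end of the planula larva of the hydrozoan jellyfish Clytia hemisphaerica was compared with its oral end, gene by gene, in 4 RNA-sequencing libraries out of the 16 of the series. They were taken by their sample titles as 2 libraries of aboral ends and 2 of oral ends, and all 18755 gene models counted in them were examined. The larvae were late 2-day planulae of laboratory Z strain adults, anaesthetised on ice and cut across by hand, and each library was made from total RNA of a pool of ends from many larvae. A library therefore averages over many animals and over every cell of that end. No larva was labelled as mutant or treated, and 2 further libraries of uncut planulae entered the fit, where they took part in the filter on low counts, the scaling and the estimate of the spread. Total counts ran from 30129270 to 31043438 per library over all 6 libraries of the fit, between 17780 and 17860 gene models had at least 1 count, and 15599 genes had enough counts to be tested. Replicates of an end differed by more than sampling noise, and the first principal component, which set the ends apart, held 75.2% of the variance. Where a gene was lower at 1 end, fewer cells of a type there and less RNA per cell cannot be told apart.

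A planula is a ciliated larva with an outer epidermis, an inner gastroderm and a single body axis. It swims with the aboral end in front and in most species attaches by that end at settlement, after which the oral end gives rise to the mouth of the polyp. Signals of the Wnt family, secreted proteins that bind Frizzled receptors, mark and pattern the oral pole of cnidarian embryos, whereas the transcription factors Six3/6 and FoxQ2 and FGF signals mark the aboral pole. Hydrozoan larvae also hold i-cells, stem cells that give rise to nerve cells, stinging cells, gland cells and germ cells.

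The labels of the ends fitted their defining genes. The forkhead gene FoxQ2a (XLOC_014597) stood at 122 and 154 CPM in aboral ends, against 8.38 and 9.89 CPM in oral ends. FGFa1 (XLOC_032698), an FGF ligand, stood at 92.1 and 106 CPM at the aboral end and 0.255 and 0.254 CPM at the oral end. The homeodomain gene Six3/6 (XLOC_010764) had 119 counts over both aboral and 2 over both oral libraries, a ratio of 62.4 (95% counting interval 16.9 to 521). These aboral pole genes were low in both oral libraries. In contrast, the Wnt ligand XLOC_031686 stood at 2.10 and 2.74 CPM in aboral ends, against 79.0 and 80.2 CPM in oral ends. The libraries of the ends did not overlap in any of these genes, the pole genes being high in both aboral libraries and the Wnt ligand in both oral libraries. With 2 libraries an end, such separation is frequent: the ends did not overlap in 66.4% of all genes tested, and it is given below as a description of the samples. CPM, the counts of a gene relative to a fixed total per scaled library, are comparable between libraries but, without gene lengths, not between genes.

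Both ends had many differing genes, but large differences were more frequent at the aboral end. Of the 15599 genes tested, 2876 (18.4%) were higher aborally and 2304 (14.8%) orally, 33.2% in all, by edgeR's quasi-likelihood test with Benjamini-Hochberg adjusted p under 0.05. Log2 fold changes are given throughout as aboral minus oral with their standard error (SE), and the median over all genes tested was -0.0084. With same-numbered libraries as blocks 3755 genes were higher aborally (24.1%) and 3546 orally (22.7%). Under a test against a 2-fold difference, 607 aboral genes (3.89%) and 183 oral genes (1.17%) remained. Of the aboral calls 741 lay within 0.5 on the log2 scale, 1011 between 0.5 and 1, 647 between 1 and 2, 404 between 2 and 5 and 73 beyond 5. Of the oral calls 939 lay within 0.5, 841 between 0.5 and 1, 399 between 1 and 2, 115 between 2 and 5 and 10 beyond 5. Thus 25.8% of aboral calls and 40.8% of oral calls were changes of less than 0.5. With the aboral and oral libraries alone 2760 genes were higher aborally and 2166 orally of 15446 tested. Without aboral replicate 1 the oral count was 1474, and without aboral replicate 2 it was 1360.

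The 2 directions also differed in how much of the RNA they took up. The 607 genes past 2-fold at the aboral end took 9.32% and 10.6% of all counts in aboral ends, against 1.24% and 1.29% in oral ends. The 183 genes past 2-fold at the oral end took 0.517% and 0.503% in aboral ends, against 2.38% and 2.34% in oral ends. The 2121 oral genes called but not past 2-fold took 20.4% and 20.1% in aboral ends, against 29.5% and 29.4% in oral ends. The aboral genes past 2-fold thus held a larger share of their own end than the oral genes past 2-fold did of theirs. Of the genes tested, 3 had no count in either oral library, and none was without counts in both aboral libraries.

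**Figure D1:**
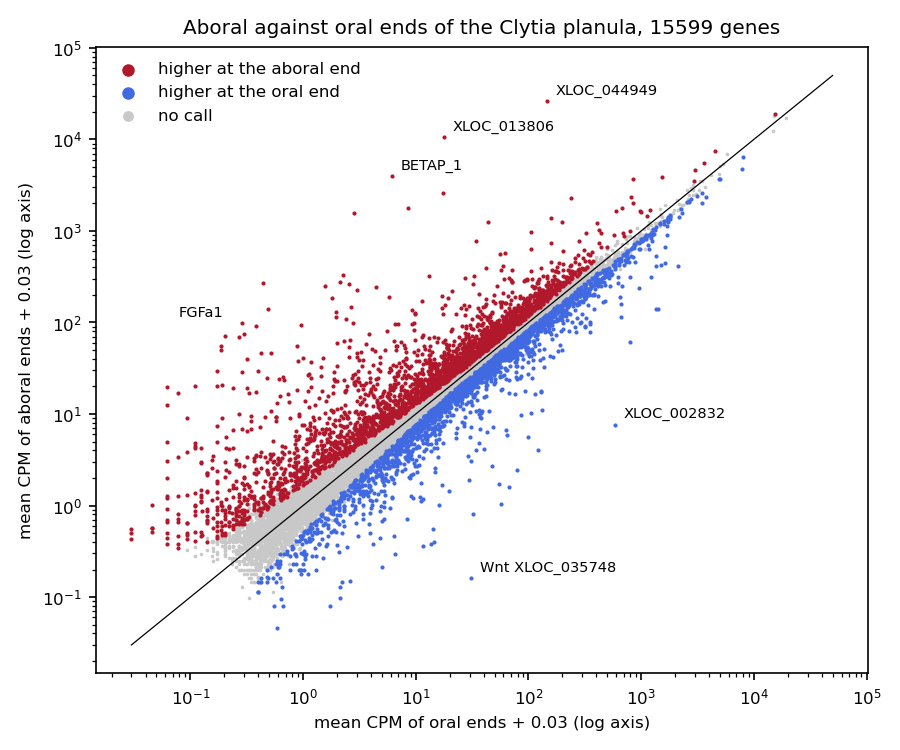
Mean CPM of the 2 aboral libraries (vertical) against mean CPM of the 2 oral libraries (horizontal) for the 15599 genes tested, both on log axes with 0.03 CPM added, each point a gene coloured by its call. Aboral genes reach far above the diagonal, with XLOC_044949, XLOC_013806 and BETAP_1 among the highest at the aboral end, whereas most oral genes lie close below it.

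Secreted proteins were among the aboral genes past 2-fold with the largest shares of counts. XLOC_044949, a gene with a signal peptide and no known domain, stood at 23769 and 28766 CPM in aboral ends, against 155 and 138 CPM in oral ends, or 2.35% and 2.82% of all counts of the aboral libraries, the largest share of any gene there. XLOC_013806, a signal peptide gene whose listed domain matches were of unrelated kinds, stood at 9461 and 12012 CPM at the aboral end and 21.0 and 14.9 CPM at the oral end. Both genes were high in both aboral libraries, with no overlap between ends. The log2 fold change was 7.48 ± 0.18 (SE, adjusted p = 6.01e-08) for XLOC_044949 and 9.22 ± 0.24 (adjusted p = 8.35e-08) for XLOC_013806. A further secreted protein without a domain, XLOC_011842, was found at 1529.7 and 1649.9 CPM in aboral ends, against 3.19 and 2.41 CPM in oral ends (9.15 ± 0.20). The class 3 lipase XLOC_019492, of a family that cleaves fatty acids from glycerolipids, was found at 2487 and 2652 CPM at the aboral end and 20.0 and 15.0 CPM at the oral end (7.20 ± 0.17). Both were likewise high in each aboral library and low in each oral one.

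BETAP_1 (XLOC_042849), a marker of the aboral neurosecretory cells, stood at 3653 and 4232 CPM in aboral ends, against 7.65 and 4.60 CPM in oral ends, high in both aboral libraries and close to absent orally, a log2 fold change of 9.33 ± 0.30 (adjusted p = 2.39e-07). The start of its coding stretch is shown because BETAP_1 had the largest aboral change of the genes named here for which the study printed a probe target. It covers positions 121 to 270 of that target, 5′ to 3′, with the start codon in capitals.
BETAP_1: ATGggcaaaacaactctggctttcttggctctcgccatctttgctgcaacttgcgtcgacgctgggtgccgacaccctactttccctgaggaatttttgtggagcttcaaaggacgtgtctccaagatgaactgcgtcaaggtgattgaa

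Secreted proteins without a recognised domain were found at both ends. Of 137 genes with a signal peptide and no domain in the study's lists of aboral and oral genes, which rest on these libraries and so fix the direction of each member, 99 were higher aborally and 38 orally, with a median log2 fold change of 3.17. Aboral genes were 72.3% of this class and 77.0% of the lists as a whole (469 aboral and 140 oral genes), so the split is near that of the lists. Together they took 4.86% and 5.60% of counts in aboral ends, against 1.27% and 1.22% in oral ends. Among the aboral members, XLOC_037157 stood at 130.4 and 149 CPM in aboral ends, against 0.510 and 0.412 CPM in oral ends (8.23 ± 0.16). MSTRG.21572 stood at 1619 and 1967 CPM at the aboral end and 9.31 and 7.64 CPM at the oral end (7.72 ± 0.22). Others were higher orally. XLOC_034423 stood at 111 and 167 CPM in aboral ends, against 1225 and 1607 CPM in oral ends (-3.35 ± 0.21). XLOC_043917 stood at 0.526 and 1.02 CPM at the aboral end and 31.7 and 33.3 CPM at the oral end (-5.40 ± 0.29). In all of these genes both libraries of 1 end lay above both of the other.

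**Figure D2:**
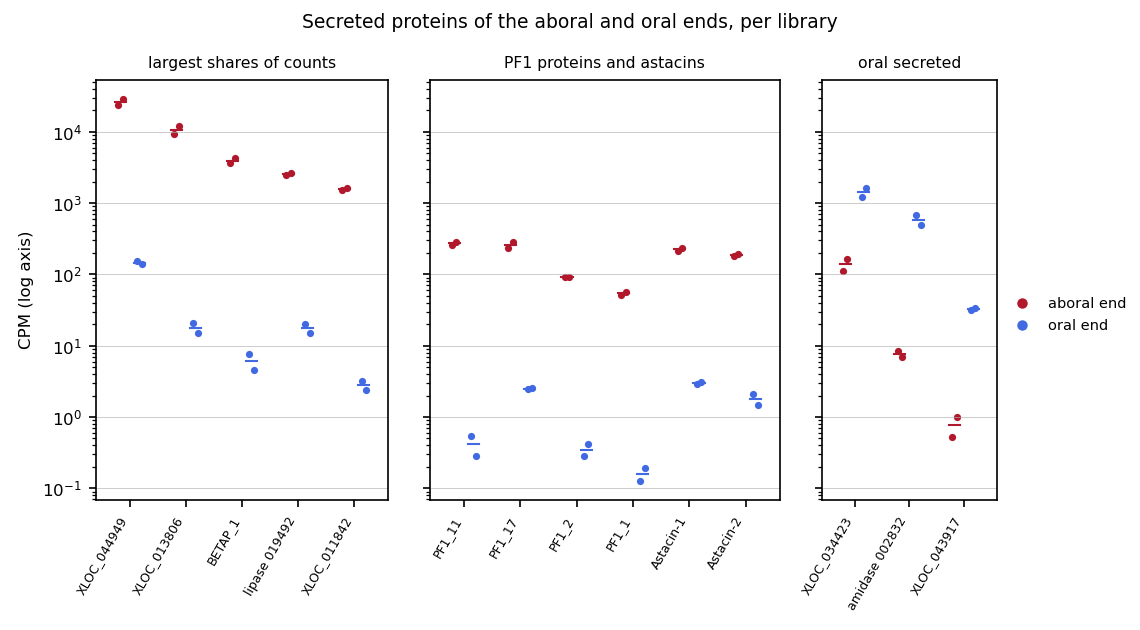
CPM per library (points) and mean of 2 libraries (bars) on a log axis for secreted proteins with large shares of counts aborally, for PF1 proteins and astacins, and for 3 oral genes. Aboral and oral libraries do not overlap in any of them, and XLOC_044949 lies highest in both aboral libraries.

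Markers of the neurosecretory cells of the aboral pole had the highest median of the lists examined. All 18 of them were higher aborally, against 18.4% of all genes tested, with log2 fold changes from 2.26 to 9.35 and a median of 6.42. Together they took 0.501% and 0.570% of counts in aboral ends, against 0.00380% and 0.00331% in oral ends. Their summed CPM in aboral ends was 5073 and 5814, and most of it came from BETAP_1 alone. These markers come from single-cell data, but the study had chosen the cell type with the help of these libraries, so the direction is not independent evidence. Besides BETAP_1, the list held PF1 genes, which encode small secreted proteins. PF1_1 (XLOC_045668) stood at 52.1 and 57.2 CPM in aboral ends, against 0.127 and 0.190 CPM in oral ends (8.39 ± 0.17). PF1_2 (XLOC_030807) stood at 91.4 and 92.8 CPM at the aboral end and 0.287 and 0.412 CPM at the oral end (8.02 ± 0.14). Members of the family differed widely in their change. PF1_13 (XLOC_030806), the least changed of the list, stood at 2.82 and 2.23 CPM in aboral ends, against 0.605 and 0.444 CPM in oral ends (2.26 ± 0.29). PF1_14 (MSTRG.3289) had 1181 counts over both aboral and 2 over both oral libraries, a ratio of 620 (95% counting interval 171 to 5122). PF1_5 (XLOC_028509) had 1002 over both aboral and 3 over both oral libraries, a ratio of 350.4 (119.6 to 1702). The list also held astacins, secreted zinc proteases. Astacin-2 (XLOC_014302) stood at 184 and 191 CPM in aboral ends, against 2.07 and 1.49 CPM in oral ends (6.71 ± 0.17). Astacin-1 (MSTRG.4254) stood at 212 and 238 CPM at the aboral end and 2.87 and 3.14 CPM at the oral end (6.22 ± 0.15). A channel and a lectin were of the same direction. The channel, Ion-trans (XLOC_034271), stood at 20.1 and 18.5 CPM in aboral ends, against 0.191 and 0.222 CPM in oral ends (6.52 ± 0.22). The C-type lectin XLOC_010823 stood at 3.48 and 4.74 CPM at the aboral end and 0.191 and 0.190 CPM at the oral end (4.40 ± 0.31). Every one of these genes was high in both aboral libraries, with no overlap.

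GLWamide neurons, named for a peptide family that triggers metamorphosis in several cnidarian larvae, had markers that were mostly higher aborally. Of 20 markers 17 were higher aborally (85.0%, against 18.4% of all genes tested) and none orally, with a median of 3.0. Together they took 0.109% and 0.113% of counts in aboral ends, against 0.0390% and 0.0425% in oral ends. Most of the oral share came from 1 marker without a call, IPYFAN-no_amide. It took 0.0360% and 0.0379% of counts in aboral ends, against 0.0316% and 0.0354% in oral ends. The precursor pp2-GLWamide (XLOC_017096) stood at 229 and 267 CPM in aboral ends, against 1.56 and 1.49 CPM in oral ends, a log2 fold change of 7.34 ± 0.16 (adjusted p = 5.95e-08). Part of its coding stretch is shown because it holds the peptide that names these cells. It covers positions 317 to 397 of the probe target, 5′ to 3′, with the codons of glycine, leucine and tryptophan and of the glycine after them in capitals.
pp2-GLWamide: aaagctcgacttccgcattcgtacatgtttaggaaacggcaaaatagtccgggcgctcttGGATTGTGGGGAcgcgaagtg
The other precursor, pp11-GLWamide (MSTRG.5804), was at 24.6 and 17.2 CPM in aboral ends, against 4.08 and 2.35 CPM in oral ends (2.70 ± 0.29), and replicate 1 was above replicate 2 at both ends. The remaining markers varied widely in size of change. The EGF-domain gene XLOC_006001 stood at 308 and 305 CPM in aboral ends, against 30.6 and 24.5 CPM in oral ends (3.48 ± 0.15). CNTNAP-like2 (XLOC_001752), of a family of neuronal adhesion proteins, differed less, at 27.8 and 26.1 CPM at the aboral end and 13.4 and 14.9 CPM at the oral end (0.93 ± 0.10). Of the 3 markers without a call, 2 were rhodopsin-family receptors, proteins that sense peptides and other ligands. XLOC_001010 had a log2 fold change of 0.66 ± 0.27 (adjusted p = 0.0983), and was called with the replicate block (adjusted p = 0.0216) and without aboral replicate 1 (adjusted p = 0.0251). MSTRG.16269, at 7.82 and 9.51 CPM in aboral ends, against 6.85 and 8.84 CPM in oral ends, had overlapping ends (0.14 ± 0.17, adjusted p = 0.569). The remaining marker without a call, IPYFAN-no_amide (XLOC_012580), named after its values were seen, had a log2 fold change of 0.19 ± 0.09 (adjusted p = 0.157), and was called with the replicate block (adjusted p = 0.0225).

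Among QYFamide neuron markers 24 of 26 were higher aborally (92.3%, against 18.4% of all genes tested) and none orally, with a median of 2.13. Together they took 0.0332% and 0.0356% of counts in aboral ends, against 0.00961% and 0.0110% in oral ends. The receptor CRHR1 (XLOC_015785), of the secretin family that in vertebrates includes the corticotropin-releasing hormone receptors, stood at 41.1 and 37.9 CPM in aboral ends, against 0.351 and 0.222 CPM in oral ends (7.09 ± 0.21). pp8-RPRPamide (XLOC_008764), a peptide precursor, had 758 counts over both aboral and 2 over both oral libraries, a ratio of 398 (95% counting interval 110 to 3289). Both were thus close to absent from the oral libraries. PRDM14 (XLOC_016107), a zinc finger transcription factor, stood at 17.4 and 16.0 CPM in aboral ends, against 1.78 and 1.87 CPM in oral ends (3.19 ± 0.14). Both amiloride-sensitive channels of the list, XLOC_031628 (2.04 ± 0.27) and XLOC_033977 (1.88 ± 0.17), were likewise higher in both aboral libraries. SLURP_14 (XLOC_029942), with few counts, had overlapping ends, at 0.263 and 0.271 CPM in aboral ends, against 0.446 and 0.127 CPM in oral ends.

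All 14 markers of HFRIamide neurons with enough counts, of 15 listed, were higher aborally, against 18.4% of all genes tested. Their median was 4.34, and together they took 0.180% and 0.178% of counts in aboral ends, against 0.00962% and 0.00954% in oral ends. Most of the aboral share came from 1 marker, the lipoxygenase XLOC_020526 described below, with 0.124% and 0.121% of counts in aboral ends. Besides the peptide precursor and genes of taurine and GABA handling, the list held ROMT-like (XLOC_020007) at 84.8 and 63.0 CPM in aboral ends, against 4.91 and 2.76 CPM in oral ends (4.27 ± 0.33). ARV1 (XLOC_002774) stood at 140.3 and 167 CPM at the aboral end and 16.2 and 19.7 CPM at the oral end (3.10 ± 0.13). Both were high in each aboral library. The homeodomain transcription factor UNC4 (XLOC_039146) stood at 27.6 and 25.2 CPM in aboral ends, against 2.74 and 2.73 CPM in oral ends (3.27 ± 0.17). The ends were apart in all 14, as in 66.4% of all genes tested. As for the other neural lists, the study had chosen this cell type with the help of these libraries.

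The signalling genes that set up body axes were divided by pathway. All 6 genes of the BMP and TGF-beta branch in the study's lists, which rest on these libraries and are 77.0% aboral as a whole, were higher aborally, with a median of 3.05. The ligands, which bind serine-threonine kinase receptors, were XLOC_000064, MSTRG.10716 and XLOC_039643. MSTRG.10716 stood at 17.1 and 21.2 CPM in aboral ends, against 5.29 and 6.43 CPM in oral ends (1.70 ± 0.17). XLOC_039643 stood at 23.4 and 26.0 CPM at the aboral end and 7.23 and 9.03 CPM at the oral end (1.60 ± 0.14). XLOC_000064, with fewer counts, stood at 5.29 and 8.26 CPM in aboral ends, against 0.223 and 0.412 CPM in oral ends (4.40 ± 0.37). Proteins with a DAN domain, a cystine knot found in secreted inhibitors of BMPs, lay at the same end as these ligands. XLOC_016427 stood at 25.3 and 25.6 CPM in aboral ends, against 0.605 and 0.666 CPM in oral ends (5.31 ± 0.14, adjusted p = 9.54e-08). XLOC_010353 stood at 119.9 and 116 CPM at the aboral end and 39.9 and 40.9 CPM at the oral end (1.54 ± 0.08). The von Willebrand type C domain gene XLOC_002687 completed the list at 9.56 and 8.77 CPM in aboral ends, against 0.478 and 0.380 CPM in oral ends (4.40 ± 0.25). The ends were apart in all 6, as in 66.4% of all genes tested, and all 6 were in lists called in these libraries.

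In the Wnt pathway the listed ligands were oral, and most other listed extracellular members were aboral, as were most genes of the lists as a whole. All 8 Wnt ligands, again a list drawn from these libraries, were higher orally, with a median of -3.03. They spanned a wide range. The least changed, XLOC_000650, stood at 2.53 and 2.84 CPM in aboral ends, against 9.40 and 10.4 CPM in oral ends (-1.88 ± 0.14). The most changed, XLOC_035748, stood at 0.230 and 0.0339 CPM at the aboral end and 30.8 and 31.3 CPM at the oral end (-7.82 ± 0.28). Of 9 receptors, antagonists and intracellular regulators 7 were aboral (77.8%) and 2 oral, near the 77.0% aboral of the lists they come from. Genes with a Frizzled domain but no Frizzled membrane region, the layout of secreted Wnt-binding proteins, numbered 4, and all were aboral. Of these XLOC_011471 stood at 801 and 746 CPM in aboral ends, against 35.8 and 32.5 CPM in oral ends (4.50 ± 0.11, adjusted p = 6.16e-08). MSTRG.3476 stood at 99.9 and 119.6 CPM at the aboral end and 2.33 and 2.44 CPM at the oral end (5.52 ± 0.14). The log2 fold change of the others was 4.18 ± 0.18 (MSTRG.3430) and 3.36 ± 0.11 (MSTRG.20613). Both Frizzled-type receptors, with a Frizzled domain and the membrane region, were aboral too. XLOC_039886 stood at 116 and 146 CPM in aboral ends, against 2.01 and 1.87 CPM in oral ends (6.08 ± 0.15). XLOC_010791 stood at 278 and 281 CPM at the aboral end and 71.4 and 72.9 CPM at the oral end (1.95 ± 0.08). The secreted Wnt inhibitor Dickkopf (XLOC_006543) stood at 8.31 and 13.3 CPM in aboral ends, against 0.542 and 0.444 CPM in oral ends. None of these 7 genes had overlapping ends.
The oral members were of other kinds. XLOC_044794, whose WIF domain binds Wnt proteins, stood at 1.45 and 1.66 CPM in aboral ends, against 68.3 and 67.2 CPM in oral ends (-5.44 ± 0.11), so 1 secreted Wnt-binding protein lay at the ligands' own end. XLOC_011804, with the DIX and RGS domains of axins, scaffolds of the beta-catenin destruction complex, stood at 24.9 and 26.9 CPM at the aboral end and 82.6 and 88.4 CPM at the oral end (-1.72 ± 0.08).

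FGF-related genes of the lists lay at both ends, whereas the listed Hedgehog and Patched genes were all aboral. Of 6 FGF, Sprouty and Ets genes 4 were aboral and 2 oral (median 2.59), and of 4 Hedgehog, Patched and Notch ligand genes 3 were aboral and 1 oral (1.59), which is near the 77.0% aboral of the lists they come from. Besides FGFa1 (8.59 ± 0.16), the aboral end held Sprouty (XLOC_008688), an intracellular inhibitor and target of FGF signalling in other animals, at 63.8 and 81.4 CPM in aboral ends, against 10.2 and 12.9 CPM in oral ends (2.65 ± 0.15). The Hedgehog ligand XLOC_001425 stood at 31.6 and 35.8 CPM in aboral ends, against 6.69 and 9.86 CPM in oral ends (2.02 ± 0.17). Genes of the family of its receptor Patched lay at the same end. XLOC_010415 stood at 43.0 and 45.4 CPM in aboral ends, against 12.5 and 13.9 CPM in oral ends (1.74 ± 0.09). XLOC_008850 stood at 131 and 128 CPM at the aboral end and 50.3 and 45.4 CPM at the oral end (1.44 ± 0.09). Ligand and receptor-type genes of this pathway were thus high in the same libraries. A Notch ligand, XLOC_004810, lay orally, at 1.05 and 0.880 CPM in aboral ends, against 5.77 and 3.93 CPM in oral ends (-2.32 ± 0.32). These genes too come from lists drawn on these libraries.

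**Figure D3:**
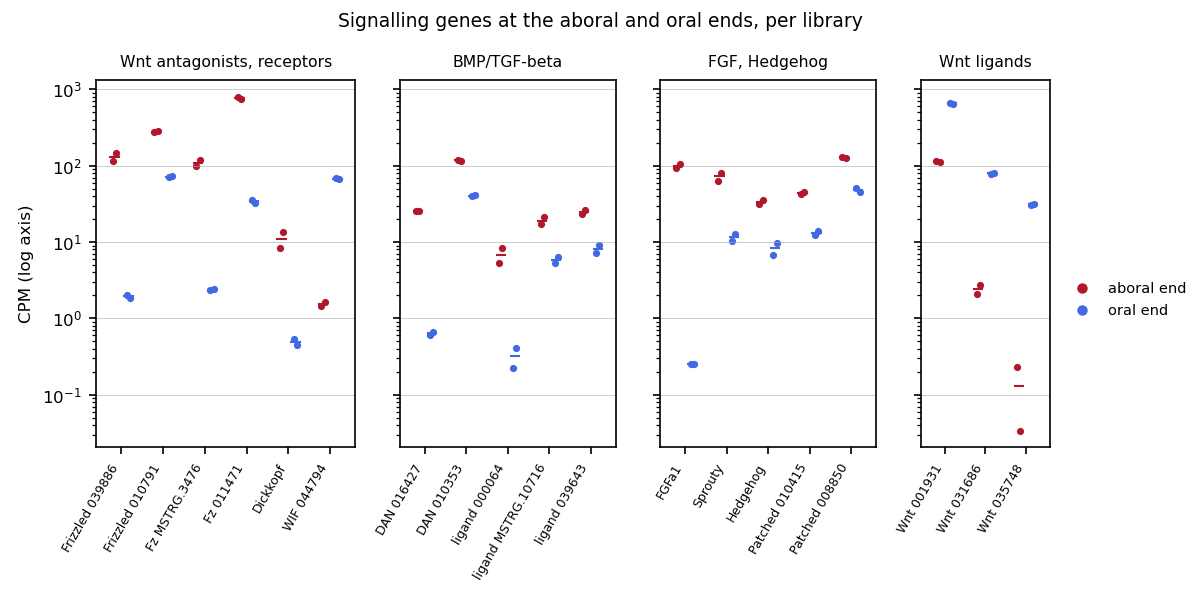
CPM per library (points) and mean of 2 libraries (bars) on a log axis for signalling genes, grouped by pathway. Wnt ligands and the WIF domain gene are higher in oral libraries, and the Frizzled, Dickkopf, DAN, TGF-beta, FGF and Hedgehog genes in aboral libraries, without overlap between ends.

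Transcription factors in the same lists comprised 10 aboral and 10 oral genes, with a median of 0.24. The aboral share was thus lower than the 77.0% of the lists as a whole, a difference that was not tested. Nk2d (XLOC_043740), a homeodomain gene, stood at 20.0 and 27.8 CPM in aboral ends, against 0.478 and 0.697 CPM in oral ends (5.34 ± 0.25). The homeodomain gene XLOC_038055 stood at 129 and 164 CPM at the aboral end and 41.6 and 37.1 CPM at the oral end (1.90 ± 0.13). The basic helix-loop-helix gene MSTRG.17658 was also aboral, at 24.0 and 25.3 CPM in aboral ends, against 3.09 and 2.25 CPM in oral ends (3.21 ± 0.15). Oral genes included other members of the same families. The homeodomain gene XLOC_010754 stood at 3.32 and 2.03 CPM in aboral ends, against 47.8 and 46.4 CPM in oral ends (-4.13 ± 0.20). XLOC_013191, also of that family, had a log2 fold change of -3.97 ± 0.15. Both were high in each oral library. The zinc finger gene XLOC_009054 stood at 6.40 and 6.36 CPM in aboral ends, against 39.0 and 46.1 CPM in oral ends (-2.73 ± 0.11). The Myb/SANT-like gene XLOC_002982 stood at 5.32 and 6.50 CPM at the aboral end and 61.9 and 66.8 CPM at the oral end (-3.44 ± 0.11).

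Several domain families had members in both the aboral and the oral lists. Family members that were in neither list are not counted, so each gene below lies at 1 end by the choice of the lists. Listed T-box genes, DNA-binding regulators that include the oral marker Brachyury in cnidarians, comprised 1 aboral and 2 oral members. The aboral TBX planulab (XLOC_034303) stood at 165 and 179 CPM in aboral ends, against 12.3 and 10.4 CPM in oral ends (3.92 ± 0.11). The oral XLOC_016911 stood at 9.49 and 12.6 CPM at the aboral end and 127 and 139 CPM at the oral end (-3.59 ± 0.14), and XLOC_044272 had a log2 fold change of -3.35 ± 0.14. Nitric oxide synthases make a gaseous signal from arginine. NOS1 (XLOC_031247) was aboral, at 18 and 18.4 CPM in aboral ends, against 3.0 and 3.07 CPM in oral ends (2.58 ± 0.14). XLOC_003367 was oral, at 15.7 and 20.3 CPM at the aboral end and 128 and 132 CPM at the oral end (-2.85 ± 0.14). Each synthase was thus high in both libraries of its own end. Listed glycosyl hydrolases of family 9, a family that includes cellulases, lay at both ends. XLOC_005988 stood at 3.94 and 5.04 CPM in aboral ends, against 0.0319 and 0.127 CPM in oral ends (5.75 ± 0.40). XLOC_004739 stood at 76.3 and 46.0 CPM at the aboral end and 876 and 711 CPM at the oral end (-3.70 ± 0.24). So did listed genes that joined an FGF domain and a fascin domain. XLOC_017006 was aboral, at 42.4 and 42.5 CPM in aboral ends, against 2.36 and 2.73 CPM in oral ends (4.06 ± 0.12). XLOC_040078 was oral, at 0.361 and 0.576 CPM at the aboral end and 3.95 and 3.90 CPM at the oral end (-3.06 ± 0.25). Both pairs thus had 1 member high at each end. The same held for Ets factors, with XLOC_040417 (2.54 ± 0.20) aboral and XLOC_001343 (-1.42 ± 0.09) oral, and for forkhead genes, with XLOC_018078 oral (-2.08 ± 0.21). Listed ammonium transporters comprised the aboral XLOC_043457 (2.96 ± 0.22) and XLOC_021492 (2.09 ± 0.18) and the oral XLOC_008658 (-3.50 ± 0.28). Among listed astacins 5 were aboral and only XLOC_031858, at 7.03 and 6.13 CPM in aboral ends, against 55.4 and 70.2 CPM in oral ends (-3.25 ± 0.15), was oral. Counts of near-identical members are uncertain, since the gene counting of STAR leaves out reads that map to several places.

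**Figure D4:**
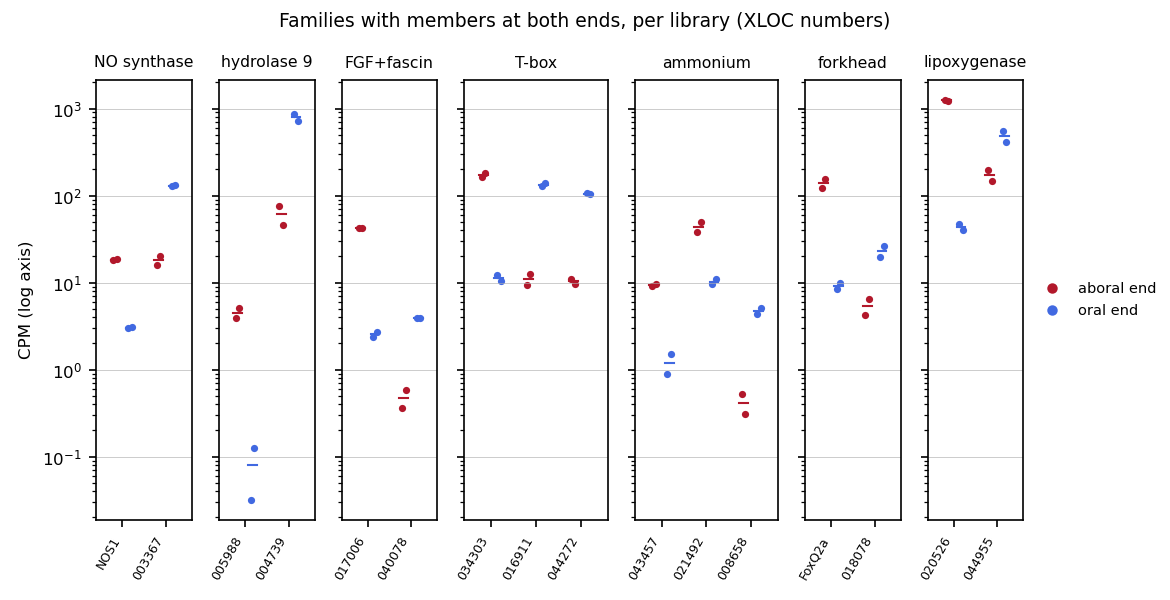
CPM per library (points) and mean of 2 libraries (bars) on a log axis for domain families with members at both ends. In each family at least 1 gene is higher in both aboral libraries and at least 1 in both oral libraries.

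Genes of electrical and chemical signalling are described next, again from the lists drawn from these libraries, of which 77.0% is aboral. Of 36 ion channels 35 were aboral and 1 oral, with a median of 2.45. The channel MSTRG.884 stood at 110.3 and 143 CPM in aboral ends, against 9.46 and 10.2 CPM in oral ends (3.69 ± 0.14). The channel XLOC_044928 stood at 120.1 and 126 CPM at the aboral end and 17.2 and 17.3 CPM at the oral end (2.83 ± 0.08). All 5 neurotransmitter-gated channels and all 4 amiloride-sensitive sodium channels were aboral, among the last XLOC_001346, at 33.5 and 44.4 CPM in aboral ends, against 3.35 and 3.45 CPM in oral ends (3.52 ± 0.16). Channels of several families were thus high in both aboral libraries. The single oral channel, XLOC_011480, has the BTB domain of voltage-gated potassium channels and stood at 0.953 and 0.880 CPM in aboral ends, against 5.70 and 5.99 CPM in oral ends (-2.67 ± 0.24), whereas the other 5 channels of that layout were aboral. All 3 innexins, which form gap junctions between cells, were aboral, with XLOC_039168 at 34.7 and 37.2 CPM in aboral ends, against 7.36 and 6.69 CPM in oral ends (2.35 ± 0.10). So were 6 claudin-type genes, with XLOC_001929 at 50.4 and 70.9 CPM at the aboral end and 6.05 and 8.75 CPM at the oral end (3.03 ± 0.23). Both genes were higher in each aboral library than in either oral one. The 7 genes of cyclic nucleotide signalling were aboral with a median of 2.10, among them the phosphodiesterase XLOC_040048, at 105 and 116 CPM in aboral ends, against 42.9 and 43.6 CPM in oral ends (1.35 ± 0.08). Of 35 G protein-coupled receptors 29 were aboral and 6 oral, with a median of 2.74, or 82.9% aboral, near the share in the lists. All 5 secretin-family receptors were aboral, whereas rhodopsin-family receptors comprised 17 aboral and 6 oral genes. The most changed oral receptor was XLOC_038606, at 0.920 and 1.05 CPM in aboral ends, against 16.9 and 15.2 CPM in oral ends (-4.02 ± 0.19), with XLOC_016754 (-3.85 ± 0.25) next.

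Extracellular and metabolic enzymes were of mixed placement. Zinc metallopeptidases comprised 10 aboral genes and 1 oral gene (median 2.53), among them the reprolysin-type XLOC_008415, at 182 and 204 CPM in aboral ends, against 18.2 and 16.0 CPM in oral ends (3.49 ± 0.10). An angiotensin-converting enzyme domain gene, MSTRG.12550, had a log2 fold change of 2.17 ± 0.15. All 7 fibrinogen-domain genes were aboral (3.49). Oxidoreductases comprised 16 aboral and 3 oral genes (2.62). MSTRG.23029, a copper/zinc superoxide dismutase that removes superoxide, stood at 310.4 and 332 CPM in aboral ends, against 13.8 and 12.3 CPM in oral ends (4.62 ± 0.16). The tyrosinase-domain gene XLOC_037560 stood at 214 and 222 CPM at the aboral end and 20.5 and 21.0 CPM at the oral end (3.39 ± 0.09). A haem peroxidase, XLOC_001332, was oral, at 112 and 81.4 CPM in aboral ends, against 388 and 322 CPM in oral ends (-1.88 ± 0.16). Both libraries of 1 end exceeded both of the other in these genes.
Other classes held several oral genes. C-type lectins, carbohydrate-binding proteins, comprised 2 aboral and 5 oral genes (median -2.18), with XLOC_006762 at 90.0 and 110.3 CPM in aboral ends, against 331 and 377 CPM in oral ends (-1.82 ± 0.13). Sulfotransferases, which add sulfate to glycans and other molecules, comprised 1 aboral gene, XLOC_037631 (2.60 ± 0.10), and 4 oral genes, led by XLOC_006664, at 0.394 and 0.271 CPM in aboral ends, against 11.2 and 12.1 CPM in oral ends (-5.11 ± 0.21). All 4 collagen-repeat genes of these lists were oral, with XLOC_037910 at 37.2 and 40.4 CPM in aboral ends, against 128 and 123 CPM in oral ends (-1.70 ± 0.13). Each of these 3 oral genes was lower in both aboral libraries than in either oral one. The matrix list as a whole held 13 aboral and 11 oral genes (median 2.21), and both perforin-domain genes were oral, XLOC_014169 (-1.64 ± 0.13) and XLOC_040207 (-1.67 ± 0.12). The largest oral change among genes of at least 10 CPM outside the Wnt family was that of XLOC_002832, a linear amide hydrolase domain gene, at 8.41 and 6.87 CPM in aboral ends, against 679 and 499 CPM in oral ends (-6.27 ± 0.19, adjusted p = 1.71e-07). Glycan enzymes as a whole held 10 aboral and 7 oral genes (median 1.52), membrane transporters 13 and 4 (2.30) and small GTPases 7 and 1 (2.33). All of these lists rest on these libraries, and their splits were not tested against the 77.0% aboral of the lists as a whole.

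Slight oral differences were frequent in genes of growth and protein synthesis. Of 716 tested markers of single-cell cluster 2, named i-cell A by the study, 427 were higher orally and 6 aborally, with a median of -0.33 against -0.0084 over all genes. None passed the test against 2-fold. The cluster markers were found in single-cell data, and the table held here ends within this cluster. The 427 genes were 59.6% of the list, against 14.8% of all genes tested that were called orally, and made up 18.5% of the 2304 oral calls. Together the markers took 15.2% and 15.0% of counts in aboral ends, against 19.9% and 19.6% in oral ends. Without aboral replicate 1 the oral count was 258, without aboral replicate 2 it was 225 and without oral replicate 1 it was 228.

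Genes for ribosomal proteins, the structural parts of the ribosome, lay slightly to the oral side. Most of them are also i-cell A markers and are counted above, and without them 375 of the other 633 markers of that list (59.2%) were higher orally. Of 85 such genes 52 were higher orally (61.2%, against 14.8% of all genes tested) and none aborally, all 85 had a negative log2 fold change (from -1.10 to -0.061), and the median was -0.33. They took 7.82% and 7.51% of counts in aboral ends, against 10.2% and 9.77% in oral ends. XLOC_029185, of the S2 family, stood at 3809 and 3585 CPM in aboral ends, against 5161 and 4866 CPM in oral ends (-0.44 ± 0.09, adjusted p = 0.00801). XLOC_002790, of the L1p/L10e family, stood at 74.0 and 75.2 CPM at the aboral end and 138 and 181 CPM at the oral end (-1.10 ± 0.15). Both oral libraries lay above both aboral ones in these genes, but XLOC_029185 was not called without aboral replicate 2 or without oral replicate 1. With same-numbered libraries as blocks 82 were called orally, and without 1 library the oral count was 9 (aboral 1), 8 (aboral 2), 9 (oral 1) or 23 (oral 2).

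Further classes were drawn by domain from the same marker table, and their oral counts stand against 14.8% of all genes tested. Genes for RNA splicing and helicases had 19 of 27 higher orally (median -0.39), including all 7 LSM genes, which bind small nuclear RNA. Proteasome genes, for protein breakdown, had 14 of 17 (-0.32), and genes of the respiratory chain and ATP synthase 12 of 20 (-0.31). The ATP synthase gene XLOC_012488 stood at 2613 and 2563 CPM in aboral ends, against 3341 and 3535 CPM in oral ends (-0.41 ± 0.10), lower in both aboral libraries, and was not called without aboral replicate 1, aboral replicate 2 or oral replicate 2. TCP-1 chaperonin and prefoldin genes, for protein folding, had 6 of 10 (-0.38), and none of these 4 classes had an aboral call. Of 23 genes listed for DNA replication, 3 of them with reverse transcriptase domains, 5 were higher orally (21.7%, median -0.28) and 16 with the replicate block. Of 5 genes matched by a core histone domain 2 were called orally (-0.31) and 4 with the block, but both calls were of CBF/NF-Y type genes, transcription factor subunits with a histone-like fold. The 4 MCM genes, for the replicative helicase, had no call (median -0.29). Counts of these small differences depended on single libraries. The range without 1 library was 10 to 16 for splicing, 3 to 11 for the proteasome, 3 to 7 for the respiratory chain, 1 to 5 for chaperonins (3 with the aboral and oral libraries alone and 10 with the block), 1 to 7 for replication and 0 to 2 for histones.

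Outside those classes, the markers of the cluster included 3 genes of ribosome production, chosen here after their values were seen. Fibrillarin (XLOC_018558), which methylates ribosomal RNA, stood at 220.5 and 194 CPM in aboral ends, against 414 and 355 CPM in oral ends (-0.89 ± 0.12). The pseudouridine synthase XLOC_018052, with the DKCLD domain of dyskerin, stood at 118 and 107 CPM at the aboral end and 213 and 179 CPM at the oral end (-0.80 ± 0.12). Nop53 (XLOC_012623), needed for the large ribosomal subunit in yeast, stood at 44.9 and 41.7 CPM in aboral ends, against 80.8 and 72.9 CPM in oral ends (-0.83 ± 0.10). All were higher in both oral libraries. The 6 markers called aborally were of other kinds. The most changed was XLOC_004724, of the Ndr family, at 223 and 192 CPM in aboral ends, against 129 and 112 CPM in oral ends (0.79 ± 0.12). The calponin gene XLOC_037278 stood at 85.0 and 88.8 CPM at the aboral end and 55.3 and 61.3 CPM at the oral end (0.58 ± 0.08).

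Genes of motile cilia, which drive larval swimming, were moderately higher aborally. Of 16 dynein heavy chains, motors of the ciliary axoneme, 14 were higher aborally, against 18.4% of all genes tested, and none orally, with a median of 0.74. The ciliary genes were drawn by domain from the markers of single-cell clusters 0 to 2 in the table held here, and others were not examined. XLOC_033713 stood at 737 and 751 CPM in aboral ends, against 408 and 433 CPM in oral ends (0.82 ± 0.08, adjusted p = 0.000174). XLOC_033870 stood at 58.1 and 71.0 CPM at the aboral end and 30.6 and 34.9 CPM at the oral end (0.98 ± 0.13). Both lay above the oral libraries in each aboral one. The 2 without a call were XLOC_009136, at 79.6 and 80.9 CPM in aboral ends, against 77.8 and 74.1 CPM in oral ends (0.079 ± 0.08, adjusted p = 0.501), and MSTRG.7757 (-0.17 ± 0.19, adjusted p = 0.523). Of 26 other ciliary genes 24 were higher aborally (92.3%, against the same 18.4%) and 1 orally, with a median of 0.65. All 3 tektins, filaments of the axonemal microtubules, were among them, with XLOC_020569 at 114 and 95.6 CPM in aboral ends, against 63.0 and 56.0 CPM in oral ends (0.82 ± 0.10). All 4 radial spoke genes were too, with XLOC_013084 at 176 and 176 CPM at the aboral end and 99.5 and 98.0 CPM at the oral end (0.83 ± 0.07). The ciliary rootlet gene XLOC_007753, for the anchor of the cilium, stood at 668 and 583 CPM in aboral ends, against 348 and 273 CPM in oral ends (1.01 ± 0.16). In these genes too the ends did not overlap. The oral exception, XLOC_002744 of the Tctex-1 dynein light chains, stood at 68.2 and 73.3 CPM in aboral ends, against 93.9 and 106 CPM in oral ends (-0.50 ± 0.11), and was not called without aboral replicate 1. None of the 42 ciliary genes passed the test against 2-fold.

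All 42 ciliary genes belonged to the markers of single-cell cluster 1, which the study named muscle-enriched epidermis. Of its 800 tested markers 367 were higher aborally and 152 orally (19.0%, against 14.8% of all genes tested), with a median of 0.27. Past 2-fold there were 51 aboral and 44 oral markers, where 3.89% and 1.17% of all genes tested passed. The 44 oral markers were among the 183 oral genes past 2-fold and included XLOC_002832, described above. Large changes in this cluster thus ran both ways. The 367 genes were 45.8% of the 802 listed markers, against 18.4% of all genes tested that were called aborally, and made up 12.8% of the 2876 aboral calls. Without the ciliary genes 329 of 758 were higher aborally and 151 orally (median 0.23). The ciliary genes were thus a small part of the aboral calls of the cluster. Contractile genes, drawn by domain from the markers of single-cell clusters 0 to 2, were called in both directions. Of 21 such genes 8 were higher aborally (38.1%, against 18.4% of all genes tested) and 2 orally (9.52%, against 14.8%). The median was 0.086, but -0.075 without aboral replicate 1 and -0.014 without oral replicate 2. The actin gene XLOC_011684, which took the largest share of counts of the oral libraries, stood at 18199.7 and 16360.0 CPM in aboral ends, against 20143 and 18724 CPM in oral ends (-0.17 ± 0.10, adjusted p = 0.254), with both aboral values below both oral ones but no call. The myosin XLOC_029205 had overlapping ends, at 1182 and 1150.4 CPM at the aboral end and 1251 and 1172 CPM at the oral end (-0.056 ± 0.10, adjusted p = 0.700), whereas the calponin gene XLOC_037277, of a family that binds actin, was higher aborally, at 98.8 and 90.0 CPM in aboral ends, against 34.5 and 26.0 CPM in oral ends (1.64 ± 0.13).

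**Figure D5:**
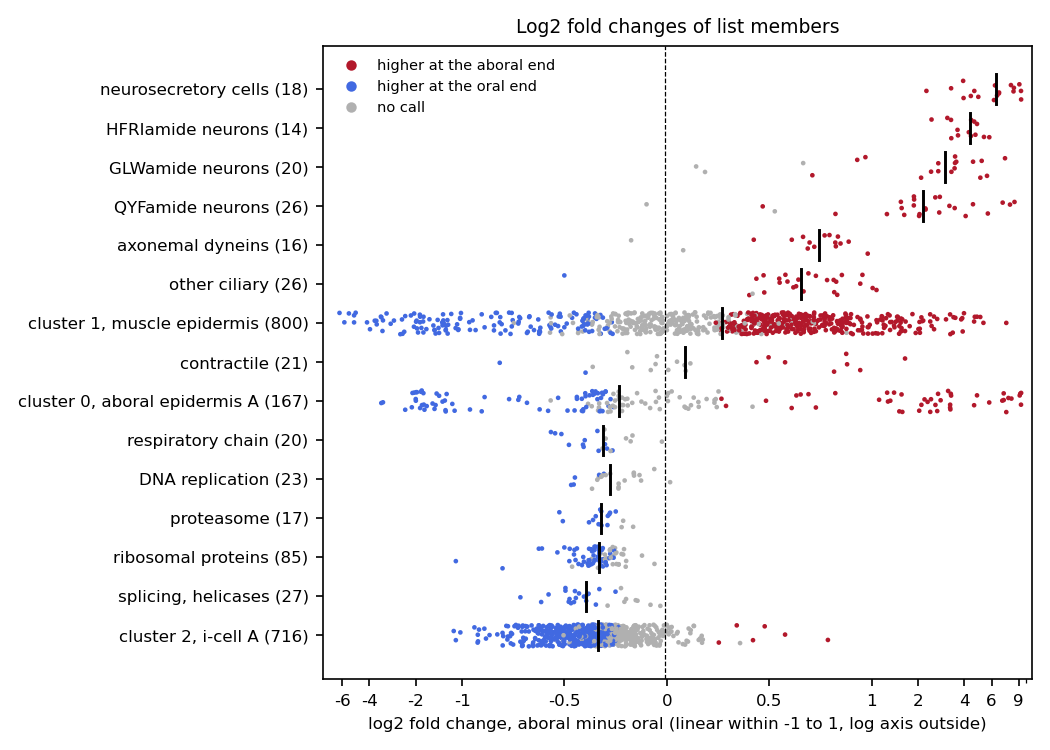
Log2 fold change (aboral minus oral) of each tested member (points, with the number in parentheses) of 15 lists, with the list median (bar) and the median of all genes (dashed line), on an axis that is linear between -1 and 1 and logarithmic outside. Neural and neurosecretory markers spread far to the aboral side, the ciliary lists have medians of 0.74 and 0.65, and i-cell A markers and ribosomal genes medians of -0.33.

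Markers of single-cell cluster 0, named aboral epidermis A by the study, went both ways. Of 167 tested markers 46 were higher aborally, 30 of them past 2-fold, and 69 orally, 21 of them past 2-fold, with a median of -0.24. These counts are 27.5% and 41.3% of the list, against 18.4% aborally and 14.8% orally over all genes tested, where 3.89% and 1.17% passed 2-fold. Of the 60 markers of this cluster alone among the 3 clusters held here, 27 were higher aborally, 19 of them past 2-fold, and 27 orally, 13 of them past 2-fold. The 33 shared with i-cell A held 18 of the oral calls and no aboral call. Without aboral replicate 1 the oral count was 41, without aboral replicate 2 it was 42 and without oral replicate 1 it was 45. The markers took 30.0% and 31.0% of counts in aboral ends, against 27.3% and 27.3% in oral ends. The list shares members with the other lists, and per the study's text its barcodes may hold free RNA. Its aboral members included the secreted genes XLOC_044949 and BETAP_1, and XLOC_006000, an EGF-domain gene, at 3322 and 3987 CPM in aboral ends, against 803 and 904 CPM in oral ends (2.10 ± 0.13). Its oral members included the collagen XLOC_037910 and XLOC_018547, a gene with an elongation factor Tu domain, at 6396 and 6368 CPM in aboral ends, against 7857 and 8018 CPM in oral ends (-0.31 ± 0.09). MSTRG.1574, a marker of both clusters 0 and 1, was abundant at both ends, at 18555 and 19094 CPM at the aboral end and 14895 and 15939 CPM at the oral end (0.29 ± 0.10). Its call (adjusted p = 0.0490) was lost under 2 other scalings and without any 1 library, as was that of XLOC_018547 without any 1 library.

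Lipoxygenases, which oxidise unsaturated fatty acids, showed the same division within 1 family. Of 8 genes 2 were higher aborally and 6 orally, with a median of -0.45. The shares over all genes tested were 18.4% aborally and 14.8% orally. These lipoxygenases were drawn by domain from the markers of single-cell clusters 0 to 2, and family members outside those markers are not counted. XLOC_020526, also a marker of the HFRIamide neurons, stood at 1253 and 1229.6 CPM in aboral ends, against 47.1 and 40.3 CPM in oral ends (4.83 ± 0.11). XLOC_042932 stood at 289 and 297 CPM at the aboral end and 176 and 180.3 CPM at the oral end (0.72 ± 0.07). The oral genes shown changed less than the first of these. XLOC_044955 stood at 199 and 145 CPM in aboral ends, against 552 and 410.4 CPM in oral ends (-1.49 ± 0.19). XLOC_044932 stood at 287 and 220.2 CPM at the aboral end and 756 and 591 CPM at the oral end (-1.41 ± 0.19). Replicate 1 exceeded replicate 2 at both ends in these last genes, and the ends did not overlap. Without aboral replicate 1, aboral replicate 2 or oral replicate 2 the oral count was 3.

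Mucous gland markers were mostly aboral, with 6 of 7 higher aborally (85.7%) and 1 orally (14.3%). Over all genes tested 18.4% were higher aborally and 14.8% orally. The median of these markers was 1.26, and they come from the study's list of genes of aboral cell types. XLOC_042365 stood at 33.5 and 37.0 CPM in aboral ends, against 13.4 and 14.0 CPM in oral ends (1.36 ± 0.13). RFX4 (XLOC_029413), a transcription factor, stood at 17.5 and 15.3 CPM at the aboral end and 9.59 and 7.99 CPM at the oral end (0.90 ± 0.14). These genes had counts well above 0 at both ends. The exception, MGT4-like1 (XLOC_034825), whose domain is that of enzymes that branch N-glycans, stood at 2.04 and 2.03 CPM in aboral ends, against 9.37 and 7.92 CPM in oral ends (-2.09 ± 0.21). XLOC_034765, with the same domain, was aboral, at 45.8 and 56.5 CPM at the aboral end and 10.6 and 13.3 CPM at the oral end (2.09 ± 0.14).

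Most genes had no call. They numbered 10419 of the 15599 tested, although both libraries of 1 end lay above both of the other in 66.4% of all genes. The genes without a call took 50.9% and 49.7% of counts in aboral ends, against 53.9% and 53.6% in oral ends.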

How the data were processed

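Each library was sequenced as paired reads (DNBseq), and the authors mapped them to the Clytia genome with STAR 2.7.11a, whose gene counts per gene model were deposited. Strand use and the genome build are not given in the sources used here. From the deposited counts, the 15599 genes passing filterByExpr of edgeR 4.0.16 (R 4.3.3, minimum count 10) were TMM-scaled and fitted by quasi-likelihood over 6 libraries with Benjamini-Hochberg adjustment, and glmTreat gave the test against 2-fold. The steps were tested on simulated data.

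The main fit had the group alone as a term and no block, so its standard errors and p-values are unpaired. Libraries with the same number counted as a pair only in the replicate block. They were paired because the methods list material per biological replicate. Replicate differences also correlated between groups (r = 0.398, 0.260 and 0.285 over genes). The main fit had 3 residual degrees of freedom. DESeq2 1.42.0 was an alternative, as were other scalings, filters, the replicate block and leaving out each library. Counting intervals cover counting error only, and p-values measure the spread between pools. Members, lists and named genes were chosen with earlier results of these data known. Lists came from the study's annotation and marker tables. Named genes were, at each end, the 10 largest changes of at least 10 CPM and the 10 largest shares of counts, up to 6 most changed, 3 highest and 3 contrary members per list, and the axis and probe genes. Others named were chosen after their values were seen.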

Additional observations from a re-analysis of the deposited data

How the results depend on the processing

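With same-numbered libraries paired as a replicate block, 3546 genes were higher orally instead of 2304. Leaving out 1 library gave 2160 to 2343 aboral and 1360 to 1806 oral calls, and past 2-fold 487 to 553 aboral and 141 to 178 oral genes. Fits that left 1 end with a single library assume that it varies like the others. The median log2 fold change of contractile genes ranged between -0.075 (without aboral replicate 1) and 0.18 (without aboral replicate 2) and was -0.014 without oral replicate 2, and the cause was not tested. DESeq2 called 2569 genes aborally and 2044 orally, and scaling by total counts 2634 and 2769. Of the 134 genes named, 7 crossed the threshold under at least 1 of 11 alternatives, 2 of them only upwards, and none changed sign while called. No list's aboral count moved by over 1.5 times. With 2 libraries per end and raw counts of 3 or fewer at the lower end, ratios are known only within their counting intervals.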
